A study of Mus musculus with 60 samples.

Results

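Mitochondrial ribosomal proteins were taken as every gene whose annotated symbol starts with Mrpl or Mrps followed by a digit. The arrays carried 132 probes for 76 such genes, 48 named Mrpl for the large ribosomal subunit and 28 named Mrps for the small one, among 19057 genes that a probe named by 1 symbol. Kept were genes detected, at a scanner detection p below 0.01, on 3 or more arrays of an experiment. This left 72 members in each of the 2 macrophage experiments and 71 in the artery experiment. Mrpl19, Mrpl32, Mrpl45 and Mrps14 passed in no experiment, and Mrpl57 was detected on 1 artery array and was left out there. Where a gene had several probes (33 members), the one with the highest mean signal was used. Mrpl41 and Mrps36 were not analysed here.

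The mitochondrial ribosome translates the messenger RNAs of mitochondrial DNA, which encode core subunits of the respiratory chain and of ATP synthase. Its proteins are all encoded in the nucleus, made in the cytosol and imported. Some descend from bacterial ribosomal proteins and others are found only in mitochondria. Macrophages that sense bacterial products through Toll-like receptors are known to shift their energy metabolism, so the genes of this machine are read here across Toll-like receptor ligands and high-density lipoprotein (HDL).

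RNA came from bone marrow-derived macrophages of C57BL/6 mice aged 6 to 8 weeks, differentiated for 6 days with M-CSF, and from injured carotid arteries. The 60 arrays formed 20 groups of 3. In the first macrophage experiment all cells were wild type (WT) and received HDL followed by CpG, CpG alone, HDL alone, or no agent (control). In the second, cells labelled ATF3-/- and WT cells each received HDL followed by CpG, HDL followed by P3C, CpG, P3C, HDL, or no agent. The HDL dose was 2 mg/ml over 6 h. Cells received CpG (an oligonucleotide ligand of TLR9) at 100 nM for 4 h and P3C (a lipopeptide ligand of TLR2) at 50 ng/ml for 4 h, and the labelled stimulation period was 10 h for all macrophages. In the artery experiment, male mice labelled ATF3-/- and WT mice of about 12 weeks received 20 mg/kg HDL or PBS intravenously 3 h after electric denudation of the common carotid artery, with a labelled stimulation period of 12 h. ATF3 is a transcription factor, and the series asked whether it mediates what HDL does to macrophages. The labels do not say whether the 3 arrays of a group came from separate cultures, so p-values measure the spread between these arrays.

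Values are probe intensities after background correction and quantile normalization, on the log2 scale, and tests are limma contrasts with p-values adjusted over all genes tested (8946, 9213 and 9356 in the 3 experiments). A gene passed at an adjusted p under 0.05. Counts at an unadjusted p under 0.05 are also given, without the share of all genes at that level. They do not set the members apart from other genes. Between 20.5% and 34.0% of probes were detected per array. The 6 measured macrophage markers were detected on every macrophage array, except 1 marker that was missed on part of the WT CpG arrays of the second experiment, and markers of T cells, B cells and fat were detected on all arrays of no macrophage group. In first-experiment control cells, 4 of 5 fibroblast and 3 of 5 smooth muscle markers were detected on all 3 arrays. Their summed signals were 940 to 1470 and 4420 to 7310, against 203 to 234 and 417 to 470 in WT control cells of the second experiment. Their part in the results was not tested. The label ATF3-/- was not borne out by the Atf3 probe, which averaged 12.68 ± 0.28 in labelled ATF3-/- control cells and 11.20 ± 0.081 in WT control cells (SD, n = 3 each). The sources used here do not say where that probe lies relative to the deletion. Erdr1, a gene picked after its values were seen, was low (4.31 to 4.98) on all 18 arrays labelled ATF3-/- and high (10.8 to 12.0) on all 18 WT arrays of the second macrophage experiment. In the artery experiment 1 array of each label went against that split. In bulk RNA, fewer cells of a type and less RNA per cell cannot be told apart.

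CpG and P3C changed mitochondrial ribosomal genes in both directions, and 1 gene led the rises in every set of arrays. Mrps18b, 1 of 3 mitochondrial homologues of a single bacterial small-subunit protein, had the largest rise of any member in each of the 5 ligand comparisons, 1.75-fold to 2.61-fold. Mrps35 and Mrpl42, proteins of the mitochondrial ribosome with no bacterial counterpart, and Mrpl28, which has one, fell in all 5. In WT cells of the second experiment, CpG raised 18 and lowered 16 of 72 members, where 22.1% of all genes rose and 28.9% fell. P3C raised 19 and lowered 11, where 21.5% of all genes rose and 28.3% fell. The median member moved by -0.01 with CpG and by 0.02 with P3C on the log2 scale, against -0.07 for all genes in each. As shares of the members, 25% rose and 22.2% fell with CpG and 26.4% rose and 15.3% fell with P3C. In these WT cells rises were near the level of all genes and falls were fewer. The split differed in labelled ATF3-/- cells and with the scaling, as given below.

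**Figure D1:**
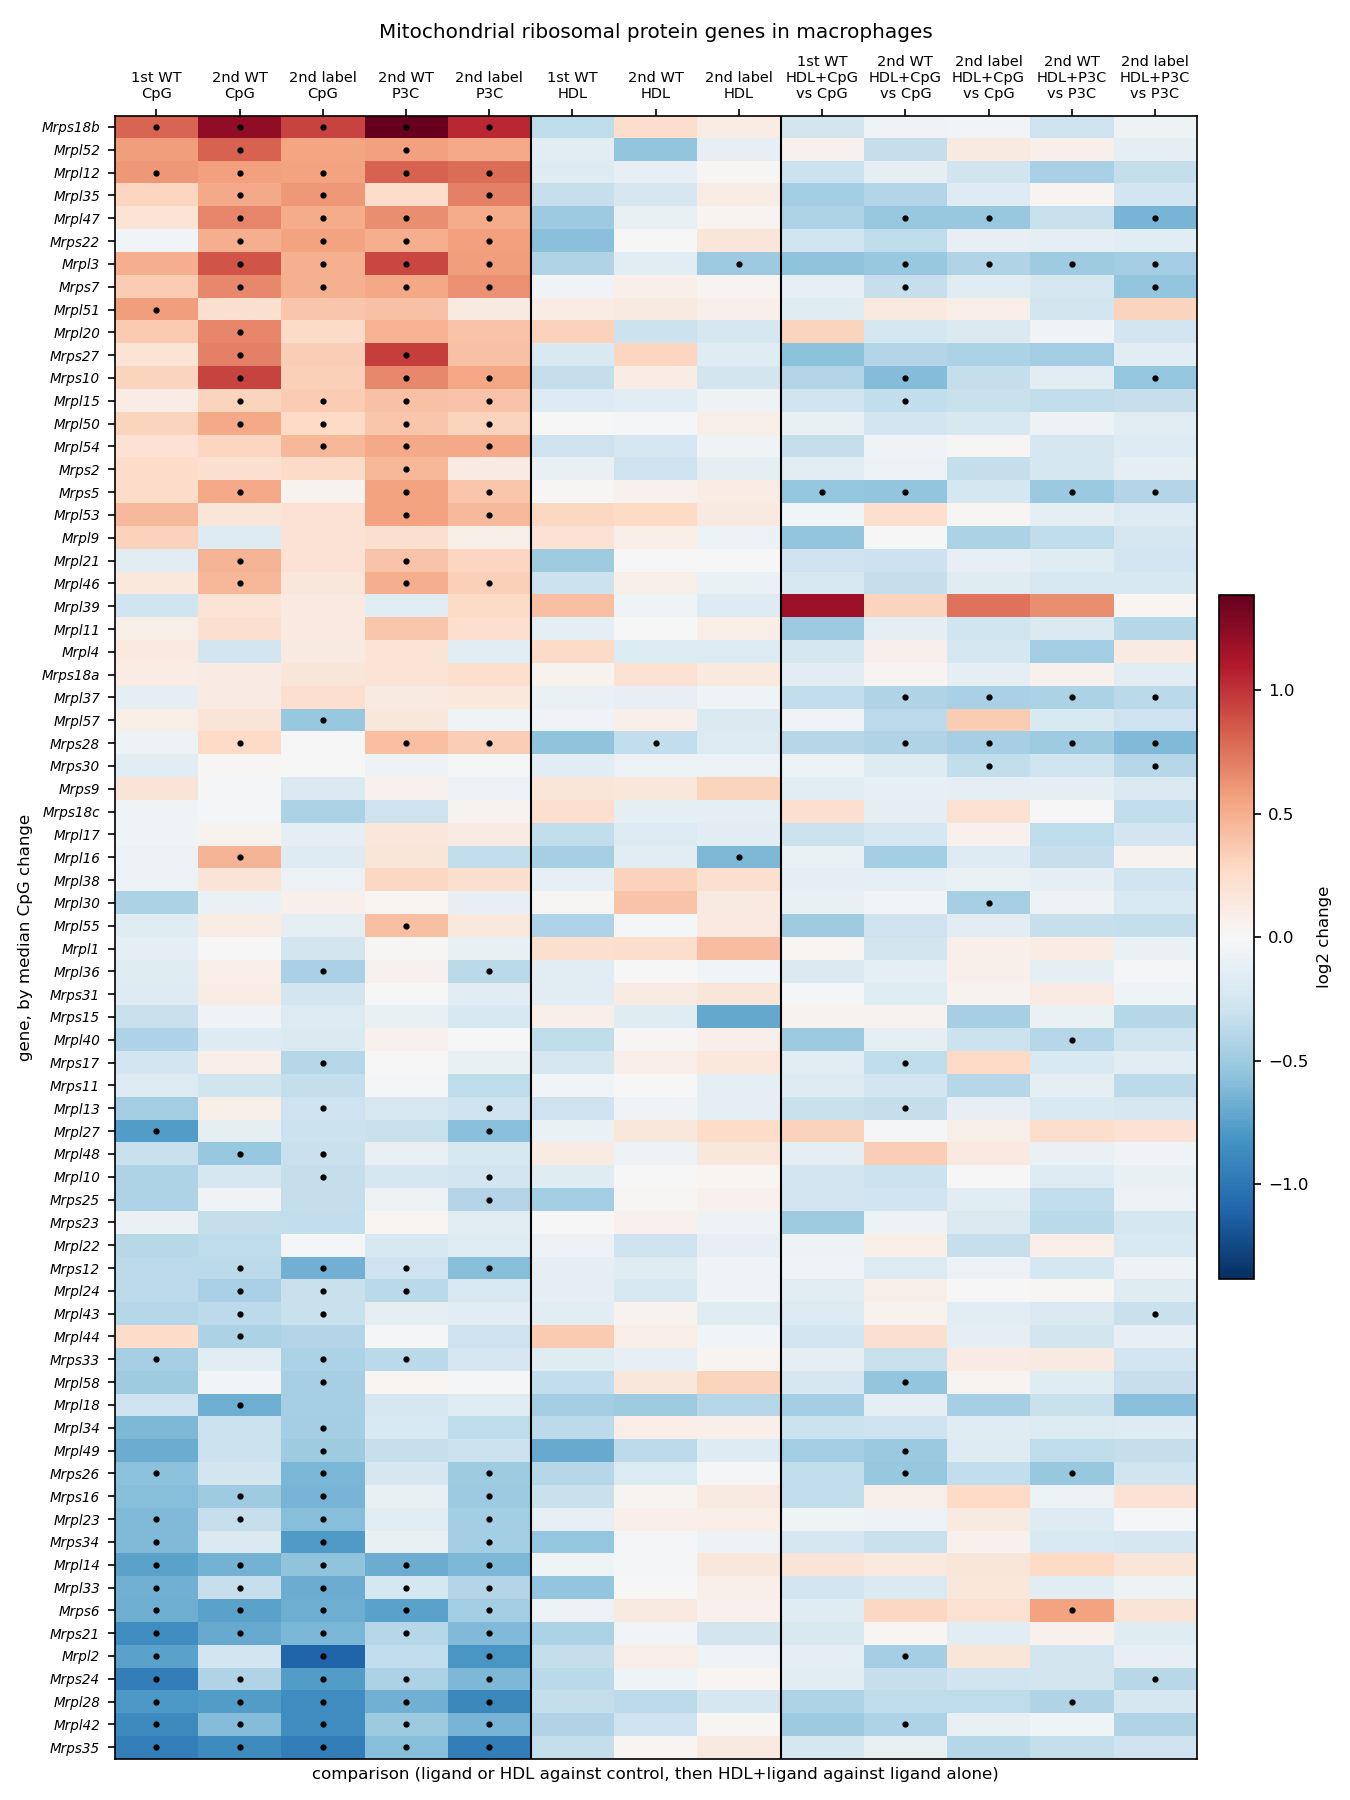
Log2 change of each member gene (rows) in each macrophage treatment comparison (columns), with a dot where limma's adjusted p was under 0.05. The ligand columns carry most dots in both colours, and the columns of HDL before a ligand carry 39 falls over 21 members and 1 rise. The shares of all genes in each column are given in the text.

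Mrps18b had intensities of 10.62, 11.11 and 10.85 in WT CpG cells and from 10.87 to 11.19 in WT P3C cells, against 9.67, 9.77 and 9.46 in WT control cells. Every ligand array stood above every control array. The change was 1.23 (SE 0.12, adjusted p = 4.07e-10) with CpG and 1.38 (SE 0.12, adjusted p = 3.57e-11) with P3C. Among labelled ATF3-/- cells, CpG arrays read 11.03, 10.86 and 10.84 and P3C arrays 10.99, 11.01 and 11.06, against 9.92, 10.03 and 9.97 in their controls, again with no overlap. The first experiment gave 10.16, 10.17 and 9.90 with CpG against 9.37, 9.32 and 9.12 in control cells (0.81, SE 0.15, adjusted p = 0.00125). The gene passed in all 5 comparisons whichever 1 array was left out. Of its 3 probes, the other 2 also passed in WT CpG cells of the second experiment, at 0.84 and 0.83. Of its paralogues, Mrps18a moved by 0.10 to 0.23 and Mrps18c by -0.44 to 0.05 over the 5 ligand comparisons, and neither passed in any. The difference between the paralogues was not tested.

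Mrpl12, which in human cells has been reported to bind the mitochondrial RNA polymerase, passed in the same 5 comparisons with changes of 0.56 to 0.82. Its WT CpG arrays of the second experiment read 9.57, 10.48 and 10.51, against 9.57, 9.65 and 9.63 in WT control cells, so 1 CpG array lay among the controls. The P3C arrays read 10.53, 10.23 and 10.56 and all lay above them. In the first experiment the CpG arrays read 9.54, 9.64 and 9.24, against 9.18, 8.59 and 8.85 in control cells. That call (0.60, SE 0.19, adjusted p = 0.0305) was the least firm of the 5, and 4 of its 6 fits with 1 array left out did not pass.

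Other members rose with both ligands. With CpG in WT cells of the second experiment, Mrps10 rose by 0.94, Mrpl3 by 0.87, Mrpl52 by 0.82, Mrps27 by 0.69 and Mrpl47 by 0.68. Mrps10 and Mrpl3 are homologues of bacterial proteins of the small and of the large subunit. Mrpl3 read 10.93, 10.96 and 10.98 in WT CpG cells, against 10.04, 10.20 and 10.03 in WT control cells (SE 0.12, adjusted p = 4.5e-07). With P3C, Mrps27 rose by 0.96, Mrpl3 by 0.92, Mrps10 by 0.67 and Mrpl47 by 0.65. A second probe of Mrpl47 gave 0.01 with CpG and -0.14 with P3C and passed in neither. The CpG and P3C comparisons share the WT control arrays.

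Among the members that fell, Mrps35 read 5.89, 7.17 and 7.05 in WT CpG cells, against 7.65, 7.47 and 7.62 in WT control cells. All CpG arrays lay below all controls, with 1 CpG array more than a log2 unit under the other 2. The change was -0.87 (SE 0.20, adjusted p = 0.000578), and it ranged from -1.11 to -0.47 as each array in turn was left out, passing each time. Mrps35 in labelled ATF3-/- cells read 6.92, 6.41 and 6.39 with CpG, against 7.67, 7.61 and 7.30 in control cells. Mrpl28 read 9.98, 10.39 and 10.43 in WT CpG cells, against 10.97, 10.99 and 11.15 in WT control cells (-0.77, SE 0.14, adjusted p = 2.32e-05). Mrps6, a homologue of a bacterial small-subunit protein, fell by 0.74 with CpG and by 0.74 with P3C in WT cells, Mrpl14 by 0.65 and 0.68, and Mrpl42 by 0.60 and 0.50. Mrps21 fell by 0.70 and Mrpl18 by 0.67 with CpG, although the groups overlapped for Mrpl18 and its other probe gave 0.08 and did not pass. Mrps12, the homologue of a bacterial protein of the decoding centre, fell in the 4 ligand comparisons of the second experiment (-0.67 to -0.28) and gave -0.36 in the first, which did not pass. Mrpl4, a large-subunit protein, passed in none of the 5 (-0.26 to 0.19). Summed signals of 5 neutrophil markers were 448 to 537 in WT CpG cells and 381 to 506 in WT P3C cells, against 208 to 248 in WT control cells of the second experiment, and their part in the result was not tested.

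**Figure D2:**
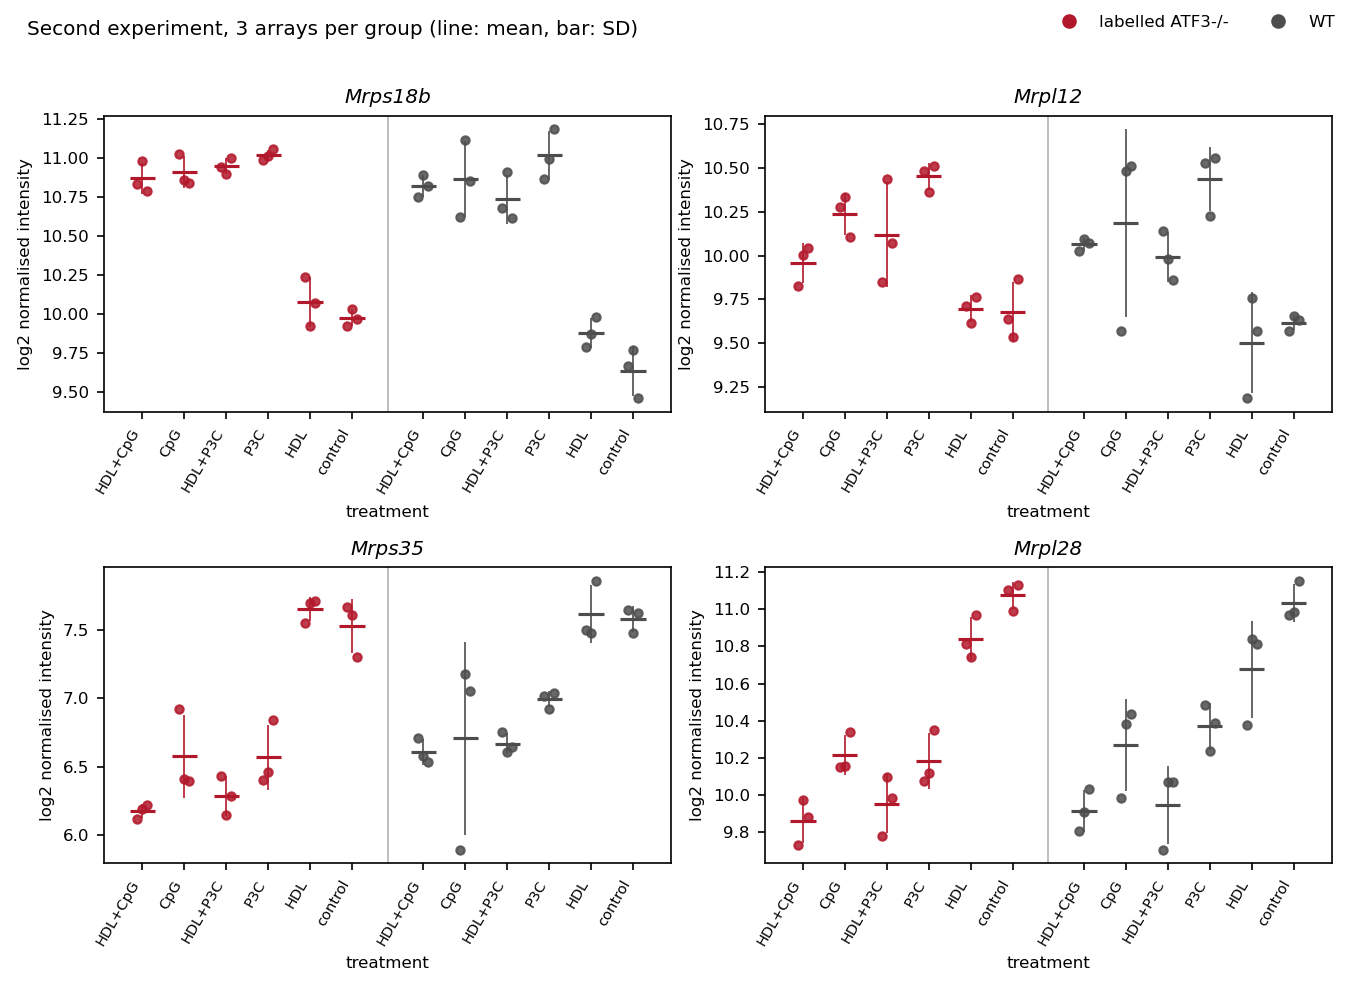
Log2 intensity of Mrps18b, Mrpl12, Mrps35 and Mrpl28 on each macrophage array, by group, with the group mean as a bar (n = 3 arrays each). Mrps18b is higher in every ligand group than in its control, and Mrps35 and Mrpl28 are lower, with 1 low WT CpG array for Mrps35 at 5.89.

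The sequence just upstream of the start of each gene is shown for 2 members that rose and 2 that fell with CpG in all 3 sets of arrays, 250 bases each from RefSeq on GRCm38.p6, read 5′ to 3′ on the gene's strand. Mrps18b lies on the minus strand (chr17:35916441-35916690), Mrpl12 on the plus strand (chr11:120484387-120484636), Mrpl42 on the minus strand (chr10:95501950-95502199) and Mrpl28 on the plus strand (chr17:26123253-26123502). Capitals mark a match to GCGCATGC, the core letters bound by the transcription factor NRF1, on either strand.
Mrps18b: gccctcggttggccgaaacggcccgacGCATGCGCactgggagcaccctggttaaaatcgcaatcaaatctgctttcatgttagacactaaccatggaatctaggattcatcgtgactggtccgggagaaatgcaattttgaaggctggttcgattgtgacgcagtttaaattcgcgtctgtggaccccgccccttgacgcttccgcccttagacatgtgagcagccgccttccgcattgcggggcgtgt
Mrpl12: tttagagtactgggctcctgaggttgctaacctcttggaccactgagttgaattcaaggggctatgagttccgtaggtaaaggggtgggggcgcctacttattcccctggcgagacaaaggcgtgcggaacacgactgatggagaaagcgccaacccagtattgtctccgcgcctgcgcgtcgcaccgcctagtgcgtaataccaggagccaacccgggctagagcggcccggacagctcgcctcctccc
Mrpl42: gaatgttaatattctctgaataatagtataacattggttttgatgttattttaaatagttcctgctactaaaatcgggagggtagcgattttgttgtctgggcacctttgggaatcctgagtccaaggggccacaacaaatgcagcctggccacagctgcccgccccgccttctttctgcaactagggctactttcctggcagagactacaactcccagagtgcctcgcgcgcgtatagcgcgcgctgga
Mrpl28: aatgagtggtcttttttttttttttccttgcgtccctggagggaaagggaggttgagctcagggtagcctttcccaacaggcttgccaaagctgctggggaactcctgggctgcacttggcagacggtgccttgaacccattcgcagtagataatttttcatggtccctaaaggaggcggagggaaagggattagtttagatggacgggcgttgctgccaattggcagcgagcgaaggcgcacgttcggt
The table held a promoter for 64 of 72 members. The NRF1 letters stood in 10.9% of these (7), against 2.32% of 27025 promoters of all genes. The ETS letters CCGGAAG, the core bound by GABP and related factors, stood in 26.6% (17) against 7.05%, the YY1 letters AAGATGGCG in 3.12% against 0.607%, and the E-box CACGTG in 7.81% against 6.05%. Each was searched on both strands, and none of the 4 strings contains another. Promoters also differed in base composition, with a median GC content of 58.4% in members and 52% in all genes. ETS letters stood in 33.3% of the 18 promoters of members above 0 in all 3 CpG comparisons and in 31% of the 29 promoters of members below 0 in all 3. NRF1 letters stood in 5.56% (1) and 10.3% (3) of the same promoters. Mrpl33, which fell in all 3 and is not shown, also held them. A match is a description of letters, not a binding site.

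The first experiment compared CpG with control in WT cells on other arrays. There CpG raised 3 members (12.8% of all genes rose) and lowered 14 (21.3% fell), and the median member moved by -0.16 against -0.11 for all genes. Mrps18b, Mrpl12 and Mrpl51 rose, although the other probes of Mrpl51 gave -0.20 and 0.09 and did not pass. Mrps24, whose bacterial homologue lines the messenger RNA entry of the small subunit, fell by 0.95, Mrps35 by 0.94, Mrpl42 by 0.88, Mrps21 by 0.86 and Mrpl28 by 0.80. All 17 calls had the same sign on each of the 2 bead chips that held both groups. The groups did not overlap for any of the 17, so this sign was fixed in advance and is no check on chip. With chip in the model 31 members passed, 6 up and 25 down. The count depended on single arrays: it was 9 without control replicate 2, 8 without CpG replicate 3 and 29 (2 up, 27 down) without control replicate 3. Shares of all genes passing under these settings are not given here.

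In labelled ATF3-/- cells CpG raised 10 and lowered 26 of 72 members, where 20.6% of all genes rose and 31% fell, with a member median of -0.20 against -0.10 for all genes. P3C raised 15 and lowered 19, where 21.5% rose and 28.1% fell, with a member median of -0.10 against -0.06. Mrpl2, the homologue of a bacterial protein next to the peptidyl transferase centre, fell by 1.11 with CpG (adjusted p = 9.52e-07) and by 0.80 with P3C. Mrps35 fell by 0.95 with CpG and 0.96 with P3C, and Mrpl28 by 0.86 and 0.89. With CpG, Mrpl42 fell by 0.86, Mrps34 by 0.78 and Mrps24 by 0.77. Mrpl35 rose by 0.60 and 0.69, and Mrps22, a mitochondria-specific small-subunit protein, by 0.56 in each. Mrpl57 passed downward with CpG, but it was detected on 0 of 3 CpG arrays and 2 of 3 control arrays, so no fold is given. The CpG and P3C comparisons share the labelled control arrays.

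Over the 3 CpG comparisons, which share no arrays, 2 members passed upward in all (Mrps18b and Mrpl12) and 9 downward in all: Mrps35, Mrpl42, Mrpl28, Mrps24, Mrps21, Mrps6, Mrpl33, Mrpl14 and Mrpl23. These are 2.78% and 12.5% of the members, against 10.6% and 17.7% of the 8626 genes tested in both macrophage experiments. A further 18 rose and 20 fell in at least 1 CpG comparison, and none passed in opposite directions. The shares of all genes passing in at least 1 are not given here. Over the 2 P3C comparisons, 14 members passed upward in both and 9 downward in both, 19.4% and 12.5%, against 16.8% and 23.1% of all genes. Across the 72 members, the CpG changes in WT cells of the first and second experiments had r = 0.798 and rho = 0.789, and 53 had the same sign. All genes had r = 0.873, and genes within an array are not independent replicates. The 11 members that passed in both were 64.7% of those in the first and 32.4% of those in the second.

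**Figure D3:**
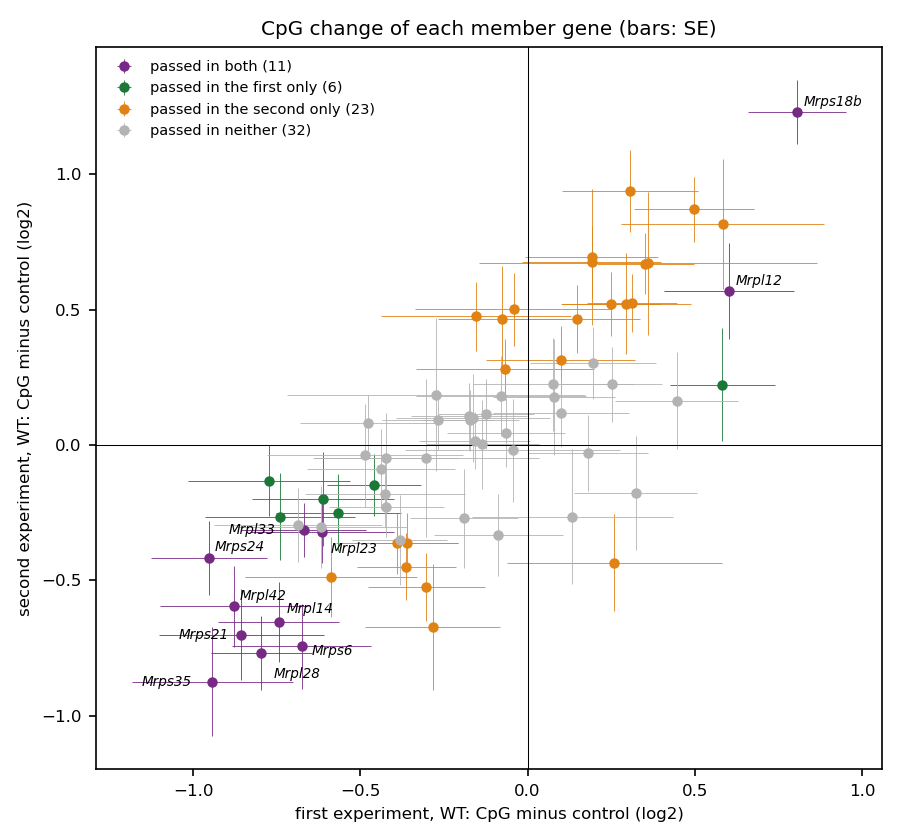
Log2 change of each of 72 members with CpG in WT cells, first experiment (x axis) against second (y axis), with standard errors as bars and colours for the tests passed. The 11 genes that passed in both experiments lie in the upper right (Mrps18b and Mrpl12) and lower left, and none passed with opposite signs.

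The number and split of the calls depended on the scaling. When each array was instead scaled to its median, CpG in the first experiment gave 1 member up and 26 down, CpG in WT cells of the second gave 5 and 9, P3C in WT cells 3 and 1, CpG in labelled ATF3-/- cells 1 and 17, and P3C in labelled cells 3 and 12. The shares of all genes passing under median scaling are not given here. That scaling moved the median of all genes by up to 0.19 in the first and 0.32 in the second experiment. Mrps18b passed under it in all 5 comparisons. None of the called members changed sign under any alternative setting in any of the 28 comparisons.

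Members named Mrpl, members named Mrps and both evolutionary classes held rises and falls. With CpG in WT cells of the second experiment, 11 of 45 members named Mrpl rose and 10 fell. Of 27 named Mrps, 7 rose and 6 fell. These were sorted by symbol alone, not by place in the ribosome. Of 45 members with a bacterial counterpart 13 rose and 11 fell, and of 27 found only in mitochondria 5 rose and 5 fell. Other genes of the pathway were followed from lists chosen with earlier results of these data known. Among 14 regulators of mitochondrial transcription, 7 rose and 1 fell. Pprc1, a coactivator of the PGC-1 family, rose by 1.41, Gabpb1, a subunit of the ETS factor GABP, by 1.03 and Nrf1 by 0.93, while Tfam, which packages mitochondrial DNA and starts its transcription, fell by 0.53. In the first experiment 5 of 13 rose and 0 fell, with 1.56 for Pprc1 and 0.73 for Nrf1.

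The genes that build and use the ribosome were counted against the same 22.1% up and 28.9% down of all genes. With CpG in WT cells of the second experiment, 2 of 22 assembly factors rose and 4 fell, led by Rbfa, which acts in small-subunit maturation, at -1.62 (-1.69 in the first experiment). Of 15 mitochondrial aminoacyl-tRNA synthesis genes 2 rose and 5 fell, with Gatc, a subunit of the amidotransferase that completes glutaminyl-tRNA, at -1.21 (-1.36 in the first). Of 14 translation factors 1 rose and 4 fell, with Guf1 at -0.99. Of 68 nuclear subunits of oxidative phosphorylation 4 rose and 24 fell, and of 55 cytosolic ribosomal proteins 5 rose and 12 fell.

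HDL alone changed few members. In the first experiment 0 of 72 rose and 0 fell by limma, where 3.23% of all genes rose and 4.85% fell, and 9 members had an unadjusted p under 0.05. The share of all genes at that unadjusted level is not given here. The smallest p was that of Mrpl33, at -0.54 (adjusted p = 0.11), followed by Mrpl49 (-0.70) and Mrps34 (-0.54). The median member lay at -0.16, against -0.04 for all genes, and at -0.01 against 0.02 on the 1 chip that held both groups. Without control replicate 3, 4 members passed, all downward. In WT cells of the second experiment 0 rose and 1 fell, where 8.37% of all genes rose and 6.88% fell. It was Mrps28, a small-subunit protein, which read 8.27, 8.26 and 8.29 with HDL, against 8.63, 8.73 and 8.48 in WT control cells. The groups did not overlap (-0.34, SE 0.11, adjusted p = 0.04), and the call was lost in 5 of the 6 fits with 1 array left out.

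In labelled ATF3-/- cells HDL alone raised 0 and lowered 2 members, where 13.4% of all genes rose and 9.89% fell. Mrpl3 read 10.22, 9.97 and 10.09 with HDL, against 10.42, 10.49 and 10.87 in labelled control cells (-0.50, SE 0.12, adjusted p = 0.00226). Mrpl16, the homologue of a bacterial protein near the aminoacyl-tRNA site, read 7.59, 7.73 and 7.53 with HDL, against 8.12, 8.29 and 8.32 in control cells (-0.63, SE 0.20, adjusted p = 0.0198). Neither gene's groups overlapped. The Mrpl3 call held in all 6 fits with 1 array left out and the Mrpl16 call in 2. Summed signals of 5 endothelial markers were 493 to 518 in labelled ATF3-/- HDL cells against 220 to 250 in labelled control cells. Cdh5, Tie1 and Tek were undetected in both groups, and Pecam1 in the control group. At least 2 of the 5 were undetected in every macrophage group, so the sums follow few genes. In WT cells the sums were 636 to 755 with HDL against 337 to 386 in control cells. Their part in the HDL results was not tested.

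With HDL given before a ligand, the median member lay below its level with the ligand alone, as given in the next paragraph. Calls of single members were less uniform. In WT cells of the second experiment HDL before CpG raised 0 and lowered 15 of 72 members, where 9.39% of all genes rose and 12% fell. HDL before P3C raised 1 (Mrps6, 0.56, adjusted p = 0.011) and lowered 7, where 9.57% rose and 9.07% fell. In labelled ATF3-/- cells HDL before CpG raised 0 and lowered 6, where 10.8% rose and 8.81% fell, and HDL before P3C raised 0 and lowered 10, where 9.22% rose and 9.3% fell. In the first experiment HDL before CpG raised 0 and lowered 1 (Mrps5), where 4.66% rose and 4.62% fell. Falls were above the share of all genes in WT cells before CpG and in labelled cells before P3C. In the other comparisons they were near or below it. These 5 comparisons share no arrays. Over them 21 members fell in at least 1 and 1 rose. The shares of all genes passing in at least 1 are not given here. In all 5, 0 members passed in either direction, against 3.12% up and 2.68% down of 8626 genes. Summed signals of markers listed for other cells differed in the same comparisons, although 2 to 4 of the 5 endothelial markers were undetected in each group. Summed signals of the 5 endothelial markers were 303 to 385 with HDL and CpG against 220 to 233 with CpG in WT cells, and 335 to 387 with HDL and P3C against 207 to 219 with P3C. In labelled ATF3-/- cells they were 299 to 335 with HDL and CpG against 159 to 197 with CpG, and 294 to 318 with HDL and P3C against 169 to 217 with P3C. The first experiment gave 151 to 206 with HDL and CpG against 108 to 141 with CpG. Summed smooth muscle markers were 1160 to 1420 with HDL and CpG against 682 to 769 with CpG in labelled cells, with 4 of 5 markers undetected in each group. In the other comparisons the smooth muscle ranges overlapped, such as 544 to 738 against 387 to 559 with CpG in WT cells. Their part in the member values was not tested.

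Most members that did not pass also lay below 0. The median member stood at -0.22 and -0.21 in WT cells, at -0.14 and -0.22 in labelled ATF3-/- cells (CpG and P3C in each) and at -0.23 in the first experiment, where the medians of all genes lay between -0.05 and -0.0018. In all 5 comparisons 37 of 72 members (51.4%) lay below 0 and 2 (2.78%) above, against 26.1% and 20.4% of the 8626 genes tested in both experiments. The member median minus that of all genes was -0.17 and -0.18 in WT cells, -0.14 and -0.18 in labelled cells and -0.18 in the first experiment. With each array scaled to its median it was -0.19, -0.16, -0.11, -0.20 and -0.16, in the same order, though no single member passed. With chip in the model it was -0.20, -0.17, -0.06, -0.16 and -0.06.

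Mrpl3, a homologue of a bacterial protein of the large subunit, passed downward in 4 of the 5. It read 10.32, 10.51 and 10.46 with HDL and CpG in WT cells, against 10.93, 10.96 and 10.98 with CpG (-0.53, SE 0.12, adjusted p = 0.00163). With HDL and P3C it read 10.60, 10.31 and 10.63, against 10.88, 11.11 and 11.04 with P3C (-0.49, SE 0.12, adjusted p = 0.0032). Neither pair overlapped. The changes in labelled ATF3-/- cells were -0.42 before CpG and -0.48 before P3C. In the first experiment the 3 arrays with HDL and CpG read 9.55, 9.26 and 9.22, against 9.94, 10.01 and 9.74 with CpG, a difference of -0.55 that did not pass (adjusted p = 0.0866). Mrpl3 also rose with each ligand in the second experiment, as given above. A second probe of Mrpl3 had the opposite sign for HDL before CpG in WT cells and did not pass.

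Mrps28 read 8.39, 8.58 and 8.44 with HDL and CpG in WT cells, against 8.92, 8.91 and 8.84 with CpG (-0.42, SE 0.11, adjusted p = 0.0074). In labelled ATF3-/- cells it read 8.25, 8.48 and 8.49 with HDL and P3C, against 8.91, 8.92 and 9.24 with P3C (-0.61, SE 0.11, adjusted p = 0.000177). The groups did not overlap in either, and the gene also fell by 0.49 (HDL before P3C, WT) and 0.46 (HDL before CpG, labelled). Mrps5, the homologue of a bacterial small-subunit protein at the messenger RNA entry, read 6.34, 6.70 and 6.64 with HDL and CpG in WT cells, against 7.13, 7.01 and 7.20 with CpG (-0.55, SE 0.12, adjusted p = 0.000924). In the first experiment it read 6.01, 5.66 and 5.66, against 6.27, 6.46 and 6.22 (-0.53, SE 0.15, adjusted p = 0.0443). That first-experiment call was lost in 5 of the 6 fits with 1 array left out, and with chip in the model its change was -0.45 (adjusted p = 0.101).

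Mrpl37, a mitochondria-specific large-subunit protein, passed in the 4 comparisons of the second experiment, with changes of -0.45 to -0.37. In WT cells it read 9.47, 9.41 and 9.44 with HDL and CpG, against 9.55, 9.95 and 10.09 with CpG, so all 3 lay below the lowest CpG array. Mrpl47 passed in 3 comparisons, and Mrps30, Mrps7, Mrps26 and Mrps10 in 2 each. A further 12 members passed in 1, and 0 passed in all 5. Within single chips that held both groups, all 15 calls for CpG and all 8 for P3C in WT cells kept their sign. So did all 6 and all 10 in labelled cells. The groups already did not overlap for 14 of the 15, and for all of the 8, 6 and 10. Those signs were fixed in advance, so they are no check on chip. Of 15 other probes of genes called for HDL before CpG in WT cells, 11 had the same sign and 1 passed. Without WT HDL and CpG replicate 1, 9 members passed (1 up, 8 down) for HDL before CpG. For HDL before P3C in labelled cells the count of 10 became 6 without HDL and P3C replicate 1 and 5 without P3C replicate 3.

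**Figure D4:**
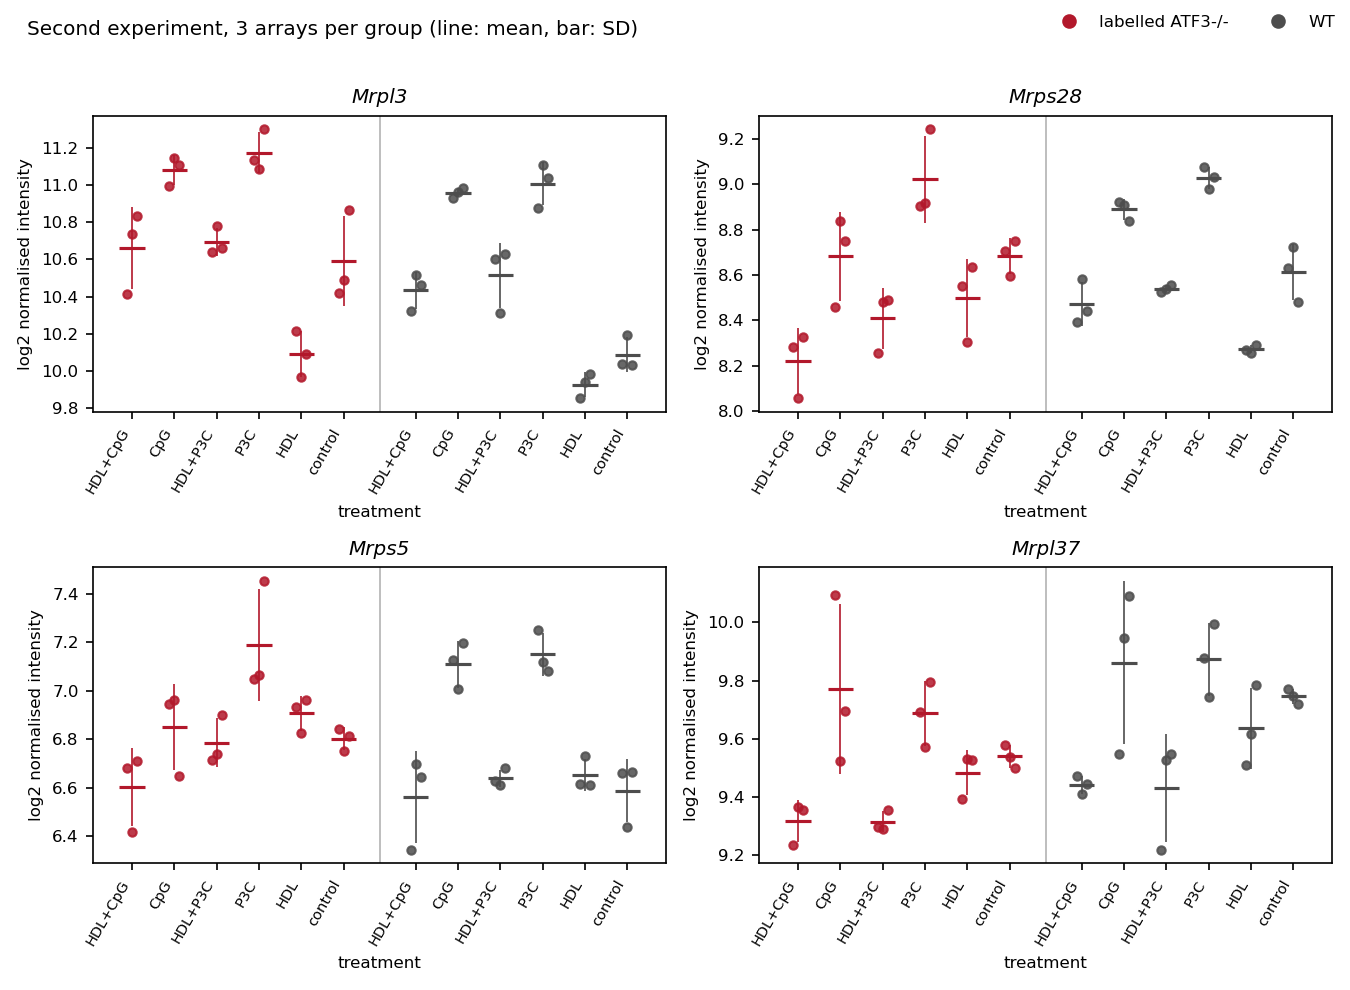
Log2 intensity of Mrpl3, Mrps28, Mrps5 and Mrpl37 on each macrophage array, with HDL before a ligand beside the ligand alone and HDL alone beside control (bars are means, n = 3 arrays each). The arrays with HDL before a ligand sit below those with the ligand alone in most pairs, such as 10.32 to 10.51 against 10.93 to 10.98 for Mrpl3 with CpG in WT cells.

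Neighbouring gene lists were read in the same comparisons. For HDL before CpG in WT cells, 10 of 45 members with a bacterial counterpart and 5 of 27 mitochondria-specific ones fell. By symbol, 9 of 45 named Mrpl and 6 of 27 named Mrps fell. Of 14 transcription regulators 0 rose and 2 fell. They were Ppargc1b, a coactivator of mitochondrial genes, at -1.20 and Tfb2m, a mitochondrial transcription factor, at -0.47. Rbfa fell by 0.58. Of 55 cytosolic ribosomal proteins 0 rose and 3 fell, and of 68 oxidative phosphorylation subunits 2 rose and 3 fell. All genes gave 9.39% up and 12% down in this comparison. Over all 5 comparisons, a downward shift was not particular to the members. Assembly factors had medians of -0.19 and -0.20 in WT cells, -0.10 and -0.13 in labelled cells (CpG and P3C in each) and -0.19 in the first experiment. Medians ran from -0.20 to -0.10 for aminoacyl-tRNA synthesis genes and from -0.14 to -0.07 for oxidative phosphorylation subunits. Cytosolic ribosomal proteins ran from -0.08 to 0.0047.

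Whether HDL changed the CpG response was also tested as an interaction in the first experiment. Here 0 of 72 members rose and 0 fell by limma, where 0.749% and 0.38% of all genes did, and 2 members had an unadjusted p under 0.05. Mrpl9 had the smallest p, at -0.74 (adjusted p = 0.357), and the median member stood at -0.02. The median standard error of a member was 0.27 in this contrast.

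Cells labelled ATF3-/- were set against WT cells under each treatment. In control cells 1 member was higher and 0 lower, where 6.46% and 6.81% of all genes were. It was Mrpl3, which read 10.42, 10.49 and 10.87 in labelled ATF3-/- control cells, against 10.04, 10.20 and 10.03 in WT control cells (0.50, SE 0.12, adjusted p = 0.0034), with no overlap. Without labelled control replicate 3 it did not pass. With CpG 0 were higher and 8 lower, where 8.89% and 13.8% of all genes were. Mrps17, a homologue of a bacterial small-subunit protein, read 10.64, 10.97 and 10.83 in labelled ATF3-/- CpG cells, against 11.68, 11.24 and 11.40 in WT CpG cells (-0.63, SE 0.11, adjusted p = 9.98e-05). Next in size were Mrpl33 (-0.51), Mrps33 (-0.45), Mrpl13 (-0.43), Mrps26 (-0.43) and Mrpl50 (-0.42). Without WT CpG replicate 1, 4 members passed. Summed signals of markers listed for other cells also differed by label. For 5 fibroblast markers, 3 of them undetected, the sums were 657 to 884 in labelled ATF3-/- control cells against 203 to 234 in WT control cells. For 5 smooth muscle markers they were 694 to 1010 against 417 to 470, with 4 undetected in labelled and 3 in WT control cells. Of the 2 smooth muscle markers tested, 1 was higher and 1 lower in labelled cells. For 5 neutrophil markers the sums were 121 to 132 in labelled control cells, where none was detected, against 208 to 248 in WT control cells. Their part in the label comparisons was not tested.

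Fewer members differed under the other treatments. With P3C 0 were higher and 1 lower (Mrpl33, -0.30, adjusted p = 0.0438), where 6.31% and 6.61% of all genes were. With HDL 1 was higher (Mrpl42, 0.48, adjusted p = 0.0316) and 0 lower, where 5.1% and 5.41% were. With HDL and CpG 0 were higher and 1 lower (Mrpl50, -0.38, adjusted p = 0.0162), where 5.88% and 6.24% were. With HDL and P3C 0 were higher and 3 lower (Mrps33 at -0.41, Mrps31 at -0.36 and Mrpl50 at -0.33), where 6.9% and 8.12% were. As each of 6 arrays in turn was left out, Mrpl33 passed in 1 fit with P3C, Mrpl42 in 2 with HDL and Mrpl50 in 3 with HDL and CpG. With HDL and P3C, 1 member passed without labelled replicate 1 and 0 without WT replicate 3. Mrpl50 was lower in 3 of the 6 treatments, and these share no arrays.

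Tests of whether a treatment acted differently under the 2 labels gave 1 call. For CpG 0 members had a positive and 1 a negative interaction, where 0.966% and 2.15% of all genes had, and the member median was -0.17 against -0.05. Mrpl2 read 8.65, 9.48 and 9.19 in labelled ATF3-/- CpG cells, against 10.26, 10.02 and 10.37 in labelled control cells. In WT cells it read 9.90, 9.31 and 9.38 with CpG, against 9.97, 9.80 and 9.61 in control cells. The difference of the 2 changes was -0.85 (SE 0.23, adjusted p = 0.0347). For P3C 0 members passed in either direction by limma (0.814% and 1.36% of all genes did), with 2 at an unadjusted p under 0.05 and the smallest adjusted p at 0.197 for Mrpl36. For HDL 0 passed in either direction (0.293% and 0.977% did), and 0 had an unadjusted p under 0.05.

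In the injured carotid artery no member passed any test by limma, and neither did any other gene. In WT arteries HDL against PBS gave 0 of 71 members up and 0 down (0% and 0% of 9356 genes), with 8 members at an unadjusted p under 0.05. In labelled ATF3-/- arteries it gave 0 and 0 (0% and 0%), with 1 at that level. Between labels, PBS arteries gave 0 and 0 (0% and 0%) with 0 at that level, HDL arteries 0 and 0 (0% and 0%) with 3, and the interaction 0 and 0 (0% and 0%) with 0. The shares of all genes at that unadjusted level are not given here. The smallest adjusted p of any member, 0.192, was shared by Mrps27, Mrpl16, Mrps31, Mrps35, Mrps17 and Mrpl11 in WT arteries. Mrps27 had the smallest unadjusted p. It was detected on 0 of 3 HDL arrays and 3 of 3 PBS arrays, so no fold is given.

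Members nevertheless lay on 1 side of 0 more often than genes in general. The median member stood at -0.32 for HDL against PBS in WT arteries, with 61 of 71 below 0, and at -0.33 in labelled ATF3-/- arteries, with 71 of 71 below 0. All genes had medians of -0.11 and -0.02 and lay below 0 in 57.2% and 52.2%. Neighbouring lists were also shifted, so this was not particular to the members. Medians in WT and labelled arteries were -0.47 and -0.42 for oxidative phosphorylation subunits and -0.41 and -0.20 for cytosolic ribosomal proteins. Assembly factors had -0.43 and -0.18. The size of the member shift depended on chip, and its direction in labelled arteries on scaling. In WT arteries the member median was -0.06 on 1 chip and -0.44 on the other, and in labelled arteries -0.43 and -0.03. With each array scaled to its median it was -1.62 in WT arteries, where 66 members passed downward, and 0.10 in labelled arteries, and the medians of all genes were then -1.08 and 0.35. Without WT HDL replicate 2, 8 members passed downward in WT arteries. The shares of all genes passing under these settings are not given here, so the counts do not set the members apart from other genes. Leaving out both arrays whose Erdr1 level went against their label gave medians of -0.12 in WT and -0.39 in labelled arteries, and 0 members passed.

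The per-array medians of the members were 7.84, 7.99 and 8.10 in labelled ATF3-/- HDL arteries, against 8.51, 8.24 and 8.17 in labelled ATF3-/- PBS arteries. WT HDL arteries had 7.81, 7.99 and 7.67, against 7.81, 8.03 and 8.63 in WT PBS arteries. The labelled groups did not overlap and the WT groups did. Mrpl16 had the widest measured spread, 2.78 log2 units, against a median of 1.21 over members, but it was detected on 1 of 3 WT HDL arrays, so its low end is set by background. It read 4.28, 6.68 and 4.33 in WT HDL arteries, against 6.30, 6.65 and 6.84 in WT PBS arteries, so 2 of 3 HDL arrays were low and the third lay within the PBS range. Mrps6 and Mrpl42 followed with spreads of 2.40 and 2.29. Cell-type markers moved across the same arrays. The summed signal of 6 macrophage markers ran from 8510 to 17900 in WT HDL arteries, against 3720 to 9030 in WT PBS arteries. Summed smooth muscle markers ran from 4350 to 35600 against 21500 to 46600, and 5 fibroblast markers from 551 to 6410 against 5120 to 10600. In labelled arteries macrophage markers ran from 5200 to 10300 with HDL against 2430 to 10700 with PBS. Their part in the member values was not tested.

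**Figure D5:**
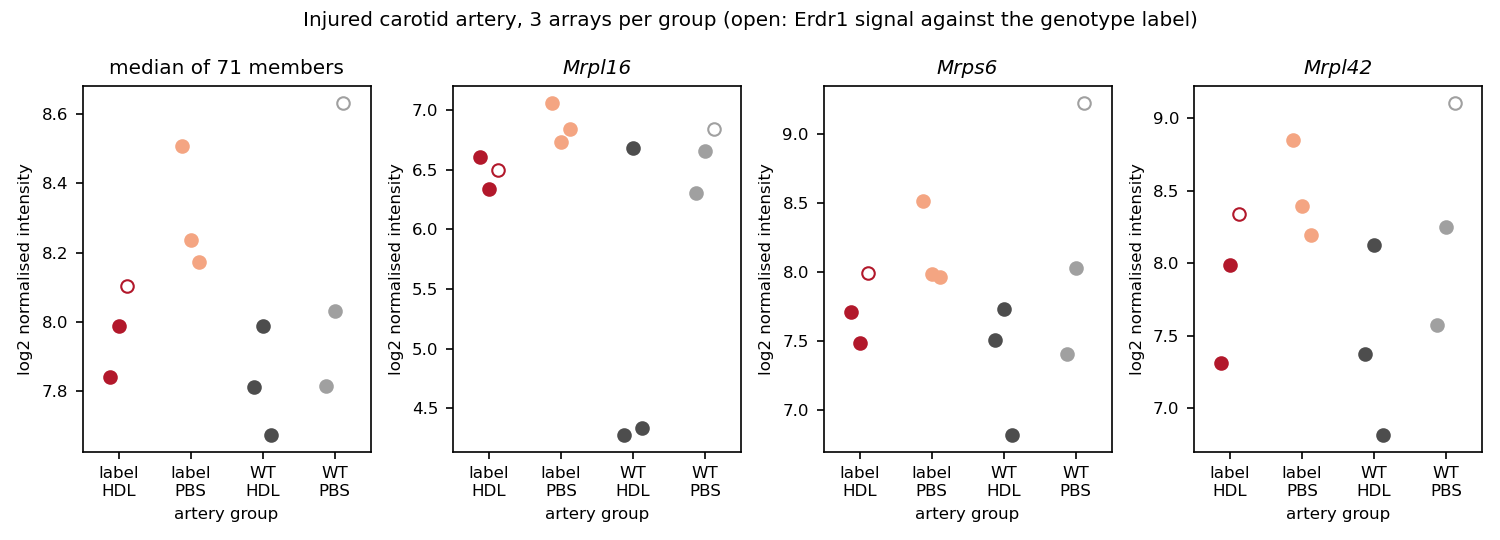
Median log2 intensity of the 71 members and the intensities of Mrpl16, Mrps6 and Mrpl42 on each artery array, by group (n = 3 arrays each; open symbols are the 2 arrays whose Erdr1 level went against their label). The groups overlap in WT arteries, and Mrpl16 is low (4.28 and 4.33) on 2 WT HDL arrays.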

How the data were processed

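RNA was measured on Illumina mouse BeadChips, 3 arrays per group. Per the file headers, the deposited non-normalized tables give 1 signal intensity and 1 detection p-value per probe and array. The deposited series matrix holds the authors' processed values. Set against the scanner signals, its macrophage columns are linear intensities with nearly equal quartiles (every array median 96.5 in the first and 113.9 in the second experiment), and its artery columns are the log2 of the deposited signal with no scaling (array medians 6.718 to 6.955). They were neither centred per gene nor turned in direction. For the matrix alternative, macrophage values were log2-transformed and artery values quantile-normalized. The submitters' processing notes name Partek with no version. Symbols came from the platform annotation: 34885 probes had 1 symbol, 18 several and 10378 none, and the last 2 kinds were left out.

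Here, within each experiment, background was corrected by normexp from the detection p-values, 16 was added, and arrays were quantile-normalized and log2-transformed. The probe with the highest mean signal stood for a gene, chosen jointly for both macrophage experiments. Genes detected at p under 0.01 on 3 or more arrays were tested with limma 3.58.1 in R 4.3.3, in 1 group-means model per experiment with 28 contrasts, empirical Bayes variances and Benjamini-Hochberg adjustment over all genes, passing under 0.05. The number of arrays limits the precision. The code was tested on simulated data.

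Genes were named from the 6 largest rises and 6 largest falls among members that passed in a comparison, the 3 smallest p-values where none passed, the 3 largest changes of each other list, the 3 widest artery ranges and a set followed throughout (Mrpl12, Mrps12, Mrpl3, Mrpl4, Mrps18a, Mrps18b, Mrps18c, Mrps30). Members that passed in several comparisons were also named, after their values were seen. The members and lists were chosen with earlier results of these data known. Alternatives were no background correction, the deposited matrix values, median scaling, no detection filter, chip as a fixed effect, the mean of a gene's detected probes, and each array left out. Leaving out both artery arrays with Erdr1 against the label was added after seeing the data. Replicates were numbered in accession order and pair nothing. No 2 arrays held identical values.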

Additional observations from a re-analysis of the deposited data

Results flagged for a closer look

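Mrpl2 was the 1 member whose response to CpG differed between the genotype labels by a test of the difference itself, with an interaction of -0.8456 on the log2 scale (adjusted p = 0.0347 by limma). The change with CpG was -1.11 in labelled ATF3-/- cells and -0.26 in WT cells. The call was lost with each array scaled to its median (adjusted p = 0.672), without the detection filter (0.0509), with chip in the model (-0.88, 0.0698) and in 6 of 12 fits with 1 array left out, over which the interaction ranged from -1.03 to -0.62. The cause was not tested.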

How the results depend on the processing

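The number of members that passed depended on the setting, and none of the called members changed sign under any. Shares of all genes under each setting, single arrays left out included, are not given. The counts therefore do not set the members apart from other genes. With each array scaled to its median, CpG against control gave 27 in the first experiment, 14 in WT and 18 in labelled ATF3-/- cells of the second, and P3C gave 4 in WT and 15 in labelled cells. It gave 0 for HDL alone in WT and in labelled cells, 0 for HDL before a ligand in all 5 comparisons, 2 for labelled against WT cells with CpG, 0 with no agent, with P3C, with HDL and with HDL and CpG, 0 for the label by CpG interaction, and 66 for HDL against PBS in WT arteries. It moved the median of all artery genes by over 1 log2 unit. Of the members called in the main analysis, 15 of 17 (first), 14 of 34 and 18 of 36 (CpG, second) and 4 of 30 and 15 of 34 (P3C) still passed. Without background correction, and likewise from the deposited matrix values, the counts were 0 for HDL before CpG in the first experiment, 4 for HDL alone in WT cells, 2 each for labelled against WT cells with no agent, with P3C and with HDL, and 3 for the interaction. With chip in the model they were 31 for CpG in the first experiment, 2 and 0 for labelled against WT cells with no agent and with HDL, and 0 for the interaction. The mean over a gene's probes gave 9 for HDL before CpG in WT cells and 2 for labelled against WT control cells. Without the detection filter the interaction gave 0.

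As each array in turn was left out, the count ran from 8 to 29 for CpG, 0 to 4 for HDL alone and 0 to 2 for HDL before CpG in the first experiment. In WT cells of the second it ran from 25 to 33 for CpG, 23 to 30 for P3C, 0 to 1 for HDL alone, 9 to 19 for HDL before CpG and 6 to 9 for HDL before P3C. In labelled cells it ran from 29 to 36, was 30 throughout for P3C, and ran from 1 to 3 for HDL alone, 5 to 8 for HDL before CpG and 5 to 9 for HDL before P3C. Labelled against WT cells gave 0 to 2 with no agent, 4 to 12 with CpG, 0 to 1 each with P3C, with HDL and with HDL and CpG, 0 to 3 with HDL and P3C, and 0 to 3 for the CpG interaction. In arteries, WT HDL against PBS gave 0 to 8, labelled against WT with HDL 0 to 2 and the interaction 0 to 1, the highest each time without WT HDL replicate 2. The cause was not tested. No paired analysis was possible because the labels give no replicate numbers. Signal over background limits dim members: Mrpl57 and, in arteries, Mrps27 and Mrpl39 were undetected on every array of a group.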

Other observations

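With P3C, 6 of 14 regulators of mitochondrial transcription rose and 3 fell in labelled ATF3-/- cells, where 21.5% of all genes rose and 28.1% fell. In WT cells 6 rose and 1 fell, where 21.5% of all genes rose and 28.3% fell. There Pprc1 rose by 1.55 and Gabpb1 by 1.14. With HDL before a ligand in the second experiment, Ndufa12, a subunit of complex I, fell by 0.53 before CpG and by 0.47 before P3C in labelled ATF3-/- cells. In WT cells it fell by 0.52 before CpG and 0.35 before P3C. Of 68 oxidative phosphorylation subunits, 2 rose and 2 fell before CpG in labelled cells, where Uqcrq rose by 0.77 and Ndufa6 by 0.57. Before P3C in labelled cells 1 rose and 3 fell. In WT cells 2 rose and 3 fell before CpG, and 0 rose and 3 fell before P3C. Ears2, the mitochondrial glutamyl-tRNA synthetase, fell by 0.61 and 0.59 in labelled cells and by 0.52 and 0.61 in WT cells (CpG and P3C). Ears2 gave -0.54 in the first experiment and did not pass (adjusted p = 0.13). All the others passed limma's test, and the genes were picked after their values were seen.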
